A study of Mus musculus with 10 samples.

Results

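Expression of 9 genes of the complement system, chosen by name, was followed in the lumbar spinal cord of mice after paclitaxel: C1qa, C1qb, C1qc, C1ra, C3, C4b, Serping1, C3ar1 and C5ar1. All 9 were found among the 24411 genes of the deposited table, and 6 of them carried enough counts to be among the 13287 genes tested. The study sequenced mRNA from lumbar cord of mice given paclitaxel, a microtubule-stabilising cancer drug that causes a painful neuropathy, and from mice given vehicle. There were 5 libraries from paclitaxel cords and 5 from vehicle cords, and each is called by its replicate number in the labels. No strain, sex, age, dose or time after treatment is named there, nor whether each sample came from an animal of its own. The p-values therefore cover only the spread between these samples, which may be technical. Because the samples were bulk tissue, fewer cells of a type and less RNA per cell cannot be told apart.

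Complement is a cascade of secreted proteins that tags targets for removal. In the classical pathway C1q binds a target and activates the proteases C1r and C1s, which cleave C4 and C2, and the enzyme so formed cleaves C3. Fragments of C3 label the target for phagocytes, and the small fragments C3a and C5a signal through receptors on myeloid cells. In the nervous system microglia are the main source of C1q, and C1q and C3 are known for tagging synapses that microglia remove.

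C1q, C4b and C3 mRNA was well above the floor of detection in every library, C1ra and both receptors were close to it, and no gene was called as different between paclitaxel and vehicle cords. Of the 6 tested genes, 2 were higher and 4 lower in value in paclitaxel cords, where 49.1% of all genes were higher and 50.9% lower. Their median log2 fold change was -0.029, against -0.0027 over all genes tested. It ran from -0.10 without paclitaxel replicate 2 to 0.0074 without paclitaxel replicate 4, so its sign rests on single libraries. With edgeR's quasi-likelihood test 0 of 6 passed an adjusted p of 0.05 and 0 had an unadjusted p under 0.05, and DESeq2 and limma-voom called 0. Over all genes edgeR called 0 of 13287, which is 0%, and 806 genes, 6.07%, had an unadjusted p under 0.05, with 2.94% of all genes higher and 3.12% lower. DESeq2 called 1 gene, 0.00541% of the 18498 that it adjusted, and limma-voom called 0%. In none of the 6 genes did the groups separate, where the groups did not overlap in 1.09% of all genes tested.

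Library totals ran from 3676259 to 5432072 counts with paclitaxel and from 4585899 to 7791594 counts with vehicle, so that 3 counts, taken as the floor of detection, stood for 0.385 to 0.819 depth-scaled counts (CPM). Markers of cord tissue were abundant: oligodendrocyte Mbp averaged 13173 ± 648 CPM in paclitaxel cords and 13100 ± 522 CPM in vehicle cords, and neuronal Snap25 2947 ± 84.6 CPM in paclitaxel cords and 2882 ± 97.9 CPM in vehicle cords (±SD, n = 5 per group). Summed CPM of 13 microglia markers ran from 348 to 474 with paclitaxel and from 346 to 430 with vehicle. Border macrophage markers summed to 2.73 to 5.09 CPM in paclitaxel cords and 1.98 to 4.12 CPM in vehicle cords, and markers of neutrophils and monocytes to 0.273 to 3.40 CPM in paclitaxel cords and 0.349 to 7.59 CPM in vehicle cords. Paclitaxel replicate 3 and vehicle replicate 4 stood apart in summed markers of meninges and fibroblasts. The sums were 884 CPM in paclitaxel replicate 3 and 766 CPM in vehicle replicate 4, where no other library exceeded 472 CPM. Ptgds alone averaged 466 ± 205 CPM in paclitaxel cords and 430 ± 138 CPM in vehicle cords (±SD, n = 5 per group). By mean log2 CPM of the 6 tested markers, relative to the vehicle mean, paclitaxel replicate 3 was the lowest paclitaxel library at -0.26. Vehicle replicate 4 was the highest library at 0.69.

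The upstream sequences of C1qb, C1qc and C3 are shown because the variation between libraries was compared among these genes and C1qa. RefSeq promoters on GRCm38.p6 were found for 6 of the 9 genes, and not for C1qa, C4b or Serping1. Each line gives the 250 bases before the transcription start that the promoter table uses, 5′ to 3′ on the gene's strand. For C1qc that start lies within the gene's annotated span, so 22 of the bases shown are inside the gene, and for C5ar1, not shown, 202 are. The windows of the other 4 genes lie wholly outside. In each line capitals mark matches to AGGAAGT, a core bound by ETS factors such as the myeloid regulator PU.1, to TTNNGNAA, bound by C/EBP factors, or to TTCNNNGAA, bound by STAT factors.
C1qb (chr4:136886201-136886450, minus strand): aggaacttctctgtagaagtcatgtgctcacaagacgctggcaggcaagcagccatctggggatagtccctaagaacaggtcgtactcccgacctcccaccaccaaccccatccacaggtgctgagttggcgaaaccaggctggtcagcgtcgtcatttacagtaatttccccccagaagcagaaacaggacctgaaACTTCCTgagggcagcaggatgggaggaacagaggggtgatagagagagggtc
C1qc (chr4:136892915-136893164, minus strand): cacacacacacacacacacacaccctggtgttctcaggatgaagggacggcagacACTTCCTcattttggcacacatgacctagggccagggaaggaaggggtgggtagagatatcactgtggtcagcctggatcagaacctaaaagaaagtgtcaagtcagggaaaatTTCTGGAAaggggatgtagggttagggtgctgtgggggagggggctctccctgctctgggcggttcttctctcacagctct
C3 (chr17:57228137-57228386, minus strand): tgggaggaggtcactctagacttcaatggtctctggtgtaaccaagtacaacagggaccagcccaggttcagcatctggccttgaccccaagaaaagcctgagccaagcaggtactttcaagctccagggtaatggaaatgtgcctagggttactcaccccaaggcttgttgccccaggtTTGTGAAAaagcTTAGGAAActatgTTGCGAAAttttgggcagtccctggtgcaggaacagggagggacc
Both strands were searched, and the patterns can overlap. AGGAAGT occurred 1 time in each of the C1qb and C1qc windows, on the opposite strand as ACTTCCT, 2 times in that of C5ar1 and 0 times in those of C3, C1ra and C3ar1. Over all 32851 windows of this length in the table, 7.69% held it. TTNNGNAA was found at 3 places before C3, at 2 before C1ra and at 1 before each of C1qc and C5ar1, and 36.8% of all windows held it. TTCNNNGAA was in none of the 6 windows and in 7.02% of all. These are matches of letters only.

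Levels differed widely between the genes once divided by transcript length. In CPM per kilobase, averaged over the 10 libraries, C1qb stood at 28.1 ± 3.80, C1qa at 25.6 ± 3.37 and C1qc at 19.6 ± 2.31 (SD, n = 10), followed by C4b at 14.5 ± 2.62 and C3 at 11.1 ± 1.96. Serping1 was at 2.35 ± 0.51, C3ar1 at 0.43 ± 0.14, C1ra at 0.26 ± 0.15 and C5ar1 at 0.22 ± 0.11 CPM per kilobase (SD, n = 10). C1q, the recognition molecule, C4b and C3 were thus above the protease C1ra and both anaphylatoxin receptors. The order of C1qb over C1qa held in 6 of 10 libraries and that of C1ra over C5ar1 in 6 of 10, so these neighbours did not differ beyond their spread. C1qa exceeded C1qc in all 10 libraries, C1qc exceeded C4b in 9 and C4b exceeded C3 in 9, although the ranges of each pair overlapped. Only the steps from C3 to Serping1 and from Serping1 to C3ar1 separated without overlap.

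**Figure D1:**
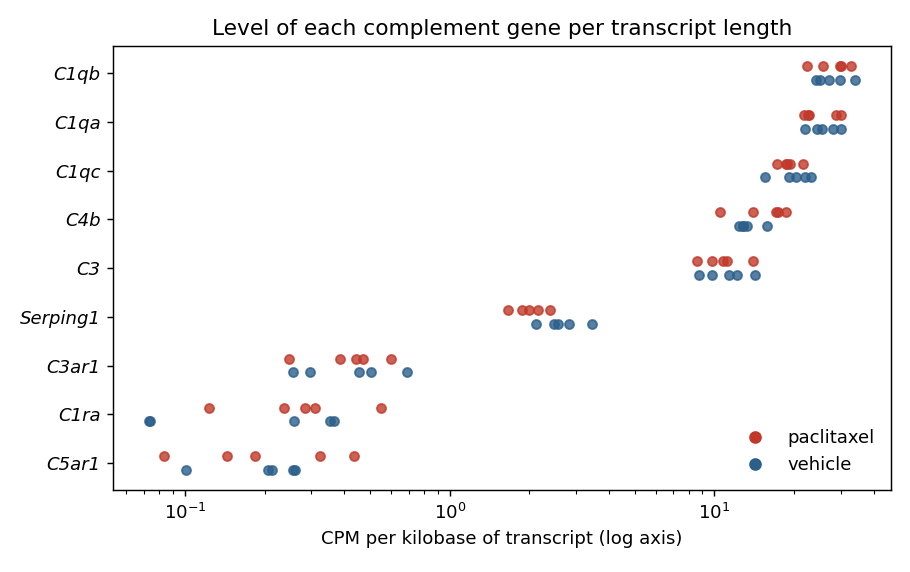
Level of each gene in CPM per kilobase of transcript on a log axis, 1 point per library, paclitaxel above vehicle in each row. The C1q genes, C4b and C3 sit above Serping1, which sits above C3ar1, C1ra and C5ar1, and the colours overlap in every row.

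C1qa, C1qb and C1qc encode the A, B and C chains that join into C1q, and lie side by side within 18719 bases of chromosome 4 (136880126 to 136898844, GRCm38). C1qa was at 23.7, 31.2, 23.6, 22.6 and 29.9 CPM in paclitaxel replicates 1 to 5, and at 31.3, 25.5, 29.3, 26.5 and 22.8 CPM in vehicle replicates 1 to 5. Both groups spanned the same range, with paclitaxel replicate 2 and vehicle replicate 1 the highest. The log2 fold change was -0.025 (SE 0.11; 95% interval from -16.0% to 14.9%; edgeR adjusted p = 0.984).

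C1qb had 32.3, 35.9, 24.4, 32.7 and 28.1 CPM in the paclitaxel libraries, against 26.4, 37.0, 29.5, 32.3 and 27.3 CPM in the vehicle libraries. The groups overlapped almost fully, with means of 30.7 ± 4.47 CPM in paclitaxel cords and 30.5 ± 4.31 CPM in vehicle cords (±SD, n = 5 per group; log2 fold change 0.011, SE 0.11; edgeR adjusted p = 0.995). C1qc had 23.2, 26.1, 20.8, 22.6 and 22.4 CPM in the paclitaxel libraries, against 18.6, 26.4, 24.4, 28.0 and 22.9 CPM in the vehicle libraries. Vehicle replicate 1 held the lowest C1qc and the highest C1qa of all 10 libraries. The log2 fold change of C1qc was -0.056 (SE 0.11; 95% interval from -17.5% to 12.2%; edgeR adjusted p = 0.952). Each chain gene turned sign when single libraries were left out.

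Summed over the 3 chains, an addition made after the values were seen, C1q stood at 79.9 ± 8.71 CPM in paclitaxel cords and 81.6 ± 6.79 CPM in vehicle cords (±SD, n = 5 per group). The log2 fold change was -0.025 (SE 0.077; edgeR adjusted p = 0.971), and its 95% interval ran from -12.0% to 9.81%. Among the 3 chains per kilobase, C1qa made up 34.7% ± 3.48 with paclitaxel and 35.3% ± 5.01 with vehicle, C1qb 38.8% ± 3.22 with paclitaxel and 37.8% ± 2.88 with vehicle, and C1qc 26.4% ± 0.95 with paclitaxel and 27.0% ± 2.91 with vehicle (±SD, n = 5 per group). The chains thus stood in like proportions in both groups, with the C share the lowest in every library.

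C1ra encodes C1r, the protease that C1q activates first, and lies on chromosome 6 (124512621 to 124523440). Its counts were 3, 5, 4, 6 and 2 in the paclitaxel libraries and 6, 6, 1, 1 and 6 in the vehicle libraries, 20 in each group in all. At 0.90 ± 0.47 CPM in paclitaxel cords and 0.67 ± 0.43 CPM in vehicle cords (±SD, n = 5 per group) it was near the floor and was not tested. A fit with no filter on low counts gave a log2 fold change of 0.28 (SE 0.50; edgeR adjusted p = 0.941), with a 95% interval from -39.9% to 145%. The near-identical gene C1rb had an expected count of 0 in all 10 libraries, so the authors' model assigned no part of any read to it.

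C4b encodes the functional mouse C4, the substrate of C1s, and lies on chromosome 17 (34728139 to 34743902). It was at 93.3, 92.2, 100.2, 56.5 and 75.4 CPM in the paclitaxel libraries, against 69.1, 85.1, 68.9, 71.2 and 66.8 CPM in the vehicle libraries. Paclitaxel libraries held both the 3 highest values and the lowest, and 4 of 5 exceeded the vehicle mean. The means were 83.5 ± 17.6 CPM in paclitaxel cords and 72.2 ± 7.37 CPM in vehicle cords (±SD, n = 5 per group), the largest positive value among the 6 genes. The log2 fold change was 0.22 (SE 0.14; 95% interval from -5.49% to 42.9%; edgeR unadjusted p = 0.138, adjusted p = 0.813). Without paclitaxel replicate 4, the lowest library, the C4b log2 fold change was 0.32 (edgeR unadjusted p = 0.00123, adjusted p = 0.799). Leaving out the lowest library of the higher group raises the difference by construction, so this p is not a test of C4b. Without paclitaxel replicate 3 and vehicle replicate 4 together the C4b log2 fold change was 0.14 (edgeR unadjusted p = 0.389). With sample quality weights it was 0.10 (limma-voom unadjusted p = 0.373). The near-identical C4a, annotated in RefSeq as a transcribed pseudogene, took 0.626% to 3.16% of the pair's expected counts with paclitaxel and 1.11% to 2.72% with vehicle. Summing the pair, added after the values were seen, left the log2 fold change at 0.21 (edgeR adjusted p = 0.813).

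C3 encodes the component on which all complement pathways converge, and lies on chromosome 17 (57203967 to 57228136). It had 50.4, 71.9, 55.2, 44.2 and 57.3 CPM in the paclitaxel libraries, against 73.0, 50.5, 58.3, 62.5 and 45.0 CPM in the vehicle libraries. The ranges were nearly the same. C3 varied by 18.5% within the paclitaxel group and 18.8% within the vehicle group (coefficient of variation), where counting alone would give 6.11% with paclitaxel and 5.60% with vehicle. The log2 fold change was -0.033 (SE 0.15; 95% interval from -22.4% to 23.0%; edgeR adjusted p = 0.985). Its fitted biological variation of 15.7% exceeded that of 93.8% of tested genes, and that of C4b, 14.4%, exceeded that of 90.8%, where the median gene had 8.49%.

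Serping1 encodes the C1 inhibitor, which inactivates C1r and C1s, and lies on chromosome 2 (84765360 to 84775444). It was at 3.52, 3.33, 4.25, 3.82 and 2.94 CPM in the paclitaxel libraries, against 4.52, 4.37, 3.74, 6.08 and 5.00 CPM in the vehicle libraries. All 5 paclitaxel libraries lay below the vehicle mean, but the groups overlapped, since vehicle replicate 3 fell under paclitaxel replicates 3 and 4. The means were 3.57 ± 0.50 CPM in paclitaxel cords and 4.74 ± 0.87 CPM in vehicle cords (±SD, n = 5 per group), a log2 fold change of -0.42 (SE 0.20; 95% interval from -44.2% to 0.0811%). This was the lowest p of the 6 genes, and it did not pass (edgeR unadjusted p = 0.0506, adjusted p = 0.80), at rank 811 of all genes by p. Within each group the highest Serping1 value belonged to the library with the highest summed CPM of meningeal and fibroblast markers. These were paclitaxel replicate 3 and vehicle replicate 4. By mean log2 CPM of the tested markers, vehicle replicate 4 was also highest, but paclitaxel replicate 3 was the lowest of its group. Without both of these libraries the Serping1 log2 fold change was -0.41 (edgeR unadjusted p = 0.0908). Counts were 83 in all with paclitaxel and 134 with vehicle, so counting error alone was 24.5% per paclitaxel library and 19.3% per vehicle library. Serping1 varied by 13.9% with paclitaxel and 18.4% with vehicle (coefficient of variation), less than counting alone would give in each group.

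C3ar1 and C5ar1 encode the receptors for C3a and C5a, which in the nervous system are found mainly on microglia. C3ar1, on chromosome 6 (122847140 to 122856157), had 2.58, 2.03, 1.06, 1.91 and 1.65 CPM in the paclitaxel libraries, against 2.17, 2.97, 1.10, 1.95 and 1.28 CPM in the vehicle libraries. The values interleaved. C5ar1, on chromosome 7 (16246743 to 16259540), had 2, 6, 1, 3 and 2 counts in the paclitaxel libraries and 3, 3, 3, 3 and 2 counts in the vehicle libraries, 14 in each group in all. Neither was tested, and with no filter the log2 fold changes were -0.041 (SE 0.34) for C3ar1 and 0.24 (SE 0.57) for C5ar1, with edgeR adjusted p of 0.983 for C3ar1 and 0.96 for C5ar1. The 95% intervals around these fitted values ran from -39.1% to 55.0% for C3ar1 and from -46.4% to 159% for C5ar1.

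**Figure D2:**
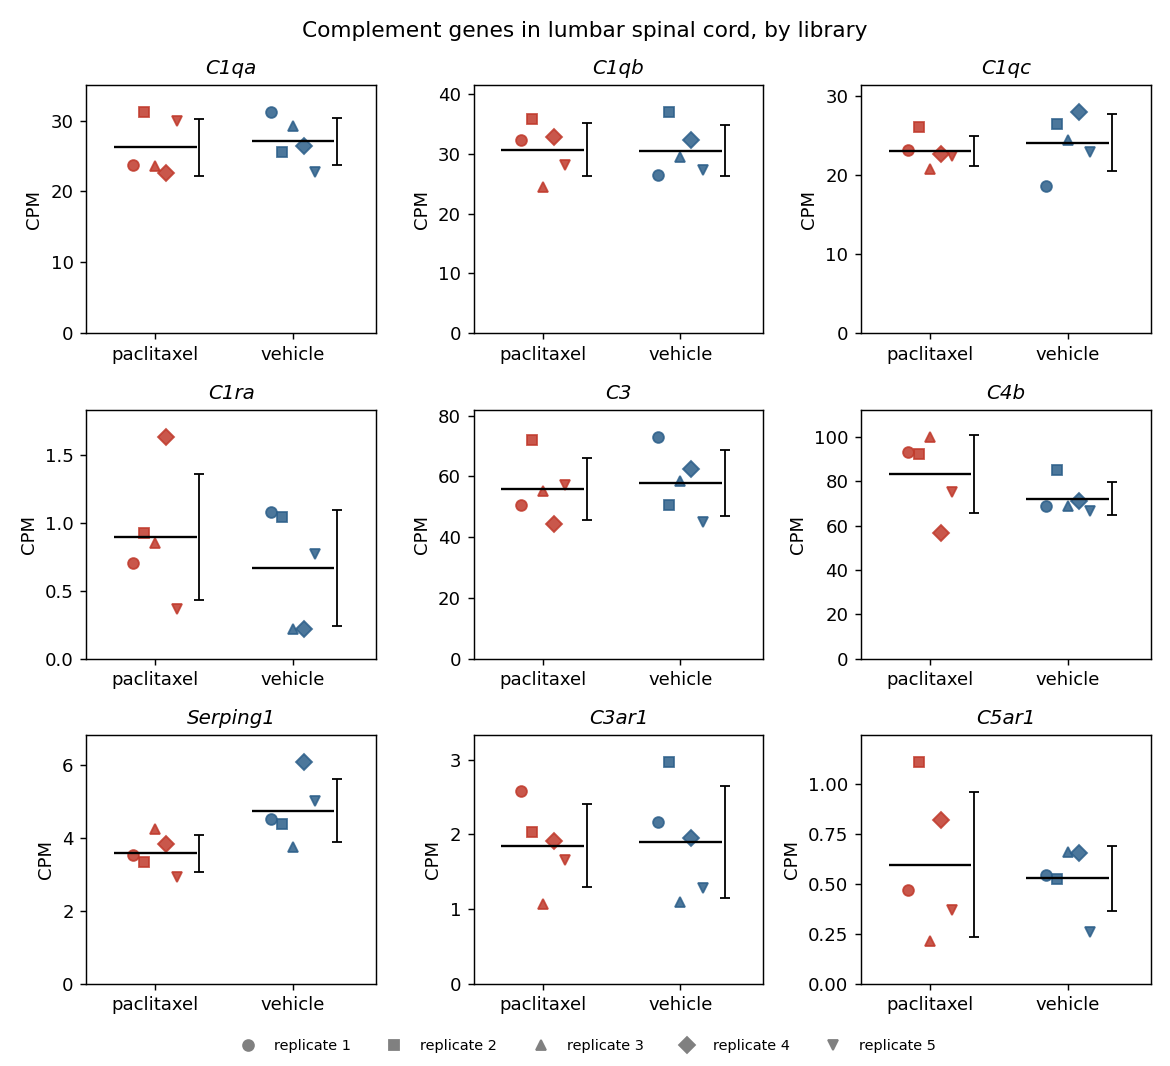
CPM of each gene in every library, paclitaxel left of vehicle, with symbols for the replicate number, a bar at the group mean and an error bar of 1 SD (n = 5). The groups overlap in all 9 panels, and Serping1 shows the clearest offset, where the vehicle mean lies above all 5 paclitaxel points.

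**Figure D3:**
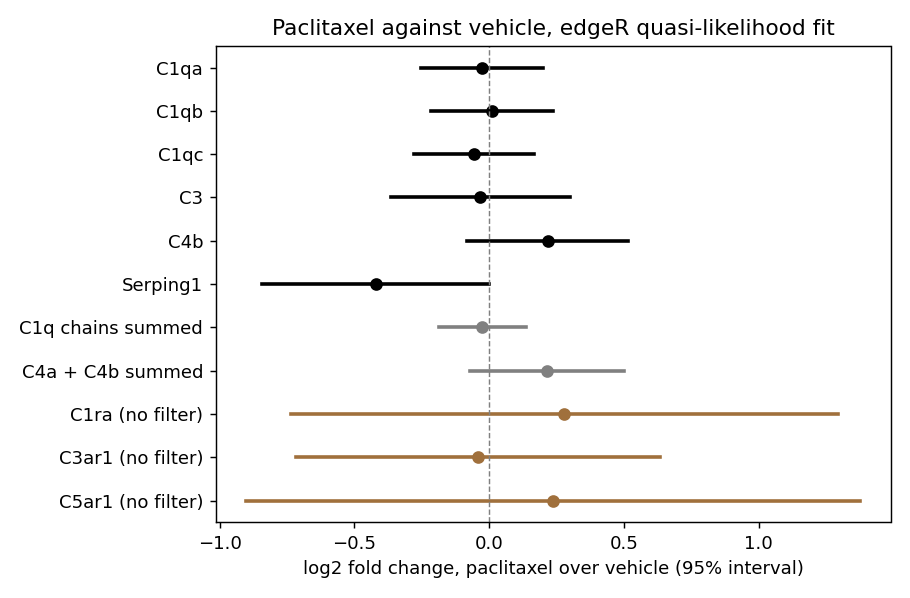
Log2 fold change of paclitaxel over vehicle with its 95% interval for the 6 tested genes (black), for summed C1q chains and the summed C4 pair (grey), and for the 3 genes fitted with no filter on low counts (brown). Every interval includes 0, and that of Serping1 ends at 0.0012.

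C1qb and C1qc had the highest correlation in value among the chains over the 10 libraries, and it did not pass (Pearson r = 0.76, permutation p = 0.0102, adjusted p = 0.123; Spearman rho = 0.72, permutation p = 0.0234, adjusted p = 0.14), and r was 0.70 without the 2 libraries farthest from the median of C1qb. C1qa followed neither C1qb (r = 0.041, permutation p = 0.905; rho = -0.042, permutation p = 0.919) nor C1qc (r = -0.022, permutation p = 0.951; rho = 0.018, permutation p = 0.973). Without the 2 libraries farthest from the median of C1qa, r was 0.010 with C1qb and 0.30 with C1qc. These were 3 of 12 relations computed, adjusted together, and none passed an adjusted p of 0.05.

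Among 11805 other genes with at least 5 CPM, likeness was measured as r between deviations of log2 CPM from the group means over the 10 libraries, with no test since the top of so many genes is high by selection. C3 ranked 9 of 11805 in likeness to C1qa (r = 0.87), whereas C1qb ranked 5343 (r = 0.044) and C1qc 6552 (r = -0.047). With each library left out in turn, r of C1qa ran from 0.82 to 0.92 with C3, from -0.26 to 0.25 with C1qb and from -0.33 to 0.51 with C1qc. The value of 0.51 came without vehicle replicate 1. Without that library r of C3 and C1qc was 0.63, against -0.078 with it. The low likeness of C1qc to C1qa and C3 thus depended on that library. C1qc varied by 8.34% within the paclitaxel group, where counting alone would give 9.60%, and by 15.0% within the vehicle group, against 8.62%. C1qa varied by 15.4% with paclitaxel and 12.2% with vehicle, against 8.93% with paclitaxel and 8.15% with vehicle from counting. C1qb varied by 14.6% with paclitaxel and 14.1% with vehicle, against 8.33% with paclitaxel and 7.65% with vehicle from counting. The part of counting error in r was not tested. In both groups C1qa and C3 were highest in the same library, paclitaxel replicate 2 and vehicle replicate 1, and lowest in paclitaxel replicate 4 and vehicle replicate 5. The 5 genes most like C1qa were Wnt7a (r = 0.94, rho = 0.90), Cpox (r = 0.92, rho = 0.92), Fam122a (r = 0.91, rho = 0.94), Exosc2 (r = 0.90, rho = 0.81) and Sh3glb1 (r = 0.90, rho = 0.84). Those most like C3 were Heatr1 (r = 0.89, rho = 0.85), Adat1 (r = 0.88, rho = 0.90), Cpox (r = 0.88, rho = 0.92), Fam122a (r = 0.88, rho = 0.89) and Sh3glb1 (r = 0.88, rho = 0.85). C4b had its own set, led by Nr4a1 (r = 0.96, rho = 0.89), Rlf (r = 0.95, rho = 0.87), Kcnk9 (r = 0.94, rho = 0.87), Slc7a5 (r = 0.94, rho = 0.89) and Cntnap4 (r = 0.93, rho = 0.77). These leaned on paclitaxel replicate 4, the library lowest in C4b. Without it r was 0.94 for Nr4a1, 0.84 for Rlf, 0.82 for Kcnk9, 0.88 for Slc7a5 and 0.78 for Cntnap4.

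**Figure D4:**
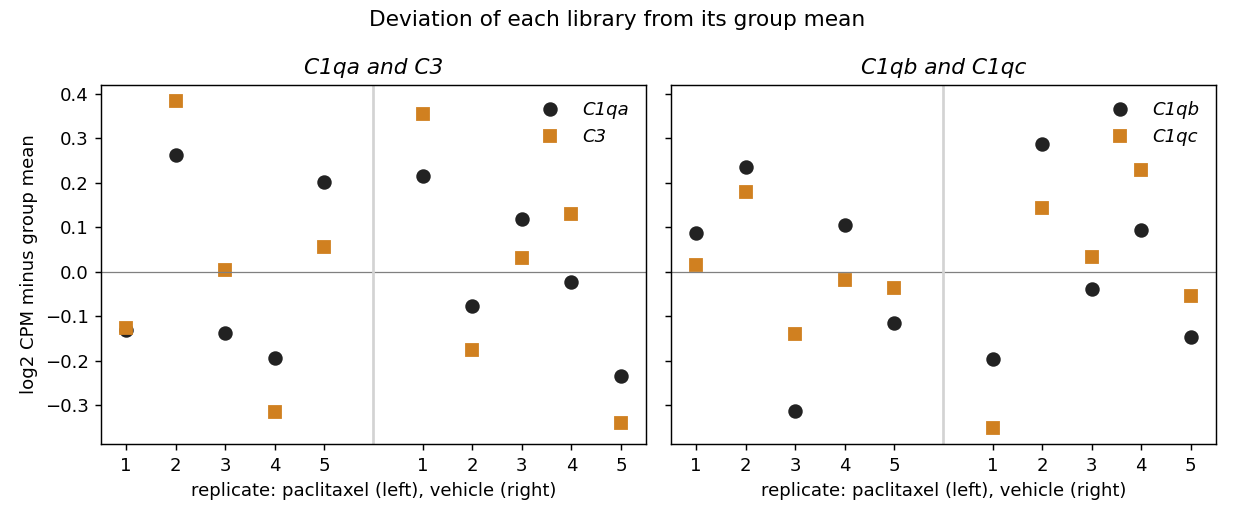
Deviation of log2 CPM from the group mean in each library, for C1qa with C3 (left panel) and C1qb with C1qc (right panel), with paclitaxel replicates left of vehicle replicates. C1qa and C3 peak together in paclitaxel replicate 2 and vehicle replicate 1, while C1qb and C1qc are low in vehicle replicate 1.

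The mean log2 CPM of the 13 microglia markers ran from 3.98 in paclitaxel replicate 3 to 4.45 in paclitaxel replicate 2, and from 4.01 to 4.36 in the vehicle libraries. The relation to this level was strongest in value for C3ar1 (r = 0.69, permutation p = 0.0285, adjusted p = 0.171; rho = 0.76, permutation p = 0.0145, adjusted p = 0.14). C5ar1 followed at r = 0.62 (permutation p = 0.0542, adjusted p = 0.195; rho = 0.42, permutation p = 0.233), C1qa at r = 0.60 (permutation p = 0.0741, adjusted p = 0.195; rho = 0.67, permutation p = 0.0392, adjusted p = 0.157) and C1qb at r = 0.58 (permutation p = 0.0812, adjusted p = 0.195; rho = 0.49, permutation p = 0.155). C3 had r = 0.51 (permutation p = 0.131; rho = 0.45, permutation p = 0.193), C1qc 0.20 (permutation p = 0.582; rho = 0.24, permutation p = 0.514) and C4b 0.20 (permutation p = 0.579; rho = 0.33, permutation p = 0.347). Serping1 ran the other way, at r = -0.42 (permutation p = 0.228; rho = -0.45, permutation p = 0.19), and C1ra was at -0.040 (permutation p = 0.911; rho = 0.12, permutation p = 0.759). C3ar1, C5ar1 and C1ra were close to the floor, C5ar1 with under 3 counts in 4 libraries. These untested genes entered as log2(CPM + 1), unlike the tested genes, so their r is not on a like scale. Without paclitaxel replicate 3 and vehicle replicate 5, the libraries farthest from the median microglia level, r was 0.38 for C3ar1, 0.34 for C1qa, 0.11 for C1qb, 0.083 for C5ar1, 0.46 for C3, -0.12 for C1qc, 0.83 for C4b, -0.33 for Serping1 and 0.068 for C1ra. The values for C3ar1, C5ar1, C1qa and C1qb were thus lower without those 2 libraries, and that for C4b was higher. None of the 12 relations passed in that setting either. The microglia list itself had 9 of 13 members higher with paclitaxel, where 49.1% of all genes were higher. In edgeR 0 members had an unadjusted p under 0.05, where 6.07% of all genes did. The median log2 fold change of the list was 0.090, against -0.0027 over all genes tested. That median ran from 0.019 without vehicle replicate 5 to 0.16 without paclitaxel replicate 3. Its part in the values of the complement genes was not tested.

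Beyond the 9 genes, a list of 55 further complement genes found in the table was read by role. Of these, 23 were tested, 6 higher and 17 lower in value in paclitaxel cords, where 50.9% of all genes were lower. The median log2 fold change was -0.047, against -0.0027 over all genes, and it turned to 0.0075 without paclitaxel replicate 3. By edgeR, 0 were called at an adjusted 0.05 and 1 had an unadjusted p under 0.05, where 6.07% of all genes did. The list was written with earlier results of these data known, and counts in 1 direction over genes of the same libraries are a description.

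The other genes of the C1 complex were near the floor. C1s1, the protease C1s, averaged 1.07 ± 0.45 CPM in paclitaxel cords and 0.97 ± 0.53 CPM in vehicle cords (±SD, n = 5 per group), and none of the 3 was tested. Of 9 lectin pathway genes 2 were tested, Masp1, a protease that starts this pathway, and Colec12, a scavenger collectin. Masp1 had a log2 fold change of -0.29 (SE 0.19), which ran from -0.40 without paclitaxel replicate 4 to -0.14 without paclitaxel replicate 2. Colec12 had one of -0.10 (SE 0.18). Among central components beside C3 and C4b, the only one tested was Cfp, properdin, which stabilises the alternative pathway enzyme, at 4.99 ± 0.77 CPM in paclitaxel cords and 5.01 ± 1.37 CPM in vehicle cords (±SD, n = 5 per group; log2 fold change -0.053, SE 0.21). None of the 7 terminal pathway genes was tested, and the one of highest CPM, C8g, averaged 0.58 ± 0.29 CPM in paclitaxel cords and 0.80 ± 0.37 CPM in vehicle cords (±SD, n = 5 per group). mRNA of the membrane attack proteins was thus near or under the floor in these libraries.

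Of 4 other tested soluble regulators, 2 were higher and 2 lower in value. Clu, clusterin, which binds the terminal complex, was at 683 ± 32.9 CPM in paclitaxel cords and 706 ± 30.7 CPM in vehicle cords (±SD, n = 5 per group). The log2 fold change of Clu was -0.047 (SE 0.048). Srpx2, which binds C1q, had a log2 fold change of 0.19 (SE 0.22), which ran from 0.066 without vehicle replicate 5 to 0.34 without vehicle replicate 1. Counting Serping1 with them, 2 of 5 tested soluble regulators were higher and 3 lower in value.

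Of 10 tested membrane regulators, 3 were higher and 7 lower in value. Csmd2, a large membrane protein of the CUB and sushi family whose relatives inhibit complement, had the lowest p of the wider list. It was at 57.6 ± 4.20 CPM in paclitaxel cords and 66.0 ± 3.53 CPM in vehicle cords (±SD, n = 5 per group), a log2 fold change of -0.20 (SE 0.071; edgeR unadjusted p = 0.00993, adjusted p = 0.792). The groups overlapped, as paclitaxel replicate 2 at 64.1 CPM exceeded vehicle replicate 1 at 61.8 CPM. Csmd3 had a log2 fold change of 0.16 (SE 0.14), which ran from 0.071 without paclitaxel replicate 3 to 0.28 without vehicle replicate 1. Sez6 was at -0.079 (SE 0.068) on the log2 scale and Sez6l2, the one of highest CPM, at -0.036 (SE 0.064).

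Of 6 tested receptors other than C3ar1 and C5ar1, 1 was higher and 5 lower in value. Cd93, an endothelial and myeloid membrane protein first described as a C1q receptor, was at 9.95 ± 3.77 CPM in paclitaxel cords and 13.7 ± 2.27 CPM in vehicle cords (±SD, n = 5 per group; log2 fold change -0.44, SE 0.23; edgeR adjusted p = 0.80). Paclitaxel replicate 3 alone held 4.25 CPM. With each library left out, the log2 fold change of Cd93 ran from -0.65 without paclitaxel replicate 2 to -0.24 without paclitaxel replicate 3. Itgam, the α chain of complement receptor 3, had a log2 fold change of 0.11 (SE 0.12), which ran from 0.035 without vehicle replicate 5 to 0.22 without paclitaxel replicate 3. Calr, calreticulin, had one of -0.090 (SE 0.10), and Lrp1, a large scavenger receptor, of -0.0034 (SE 0.053), the last turning sign with other scalings.

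**Figure D5:**
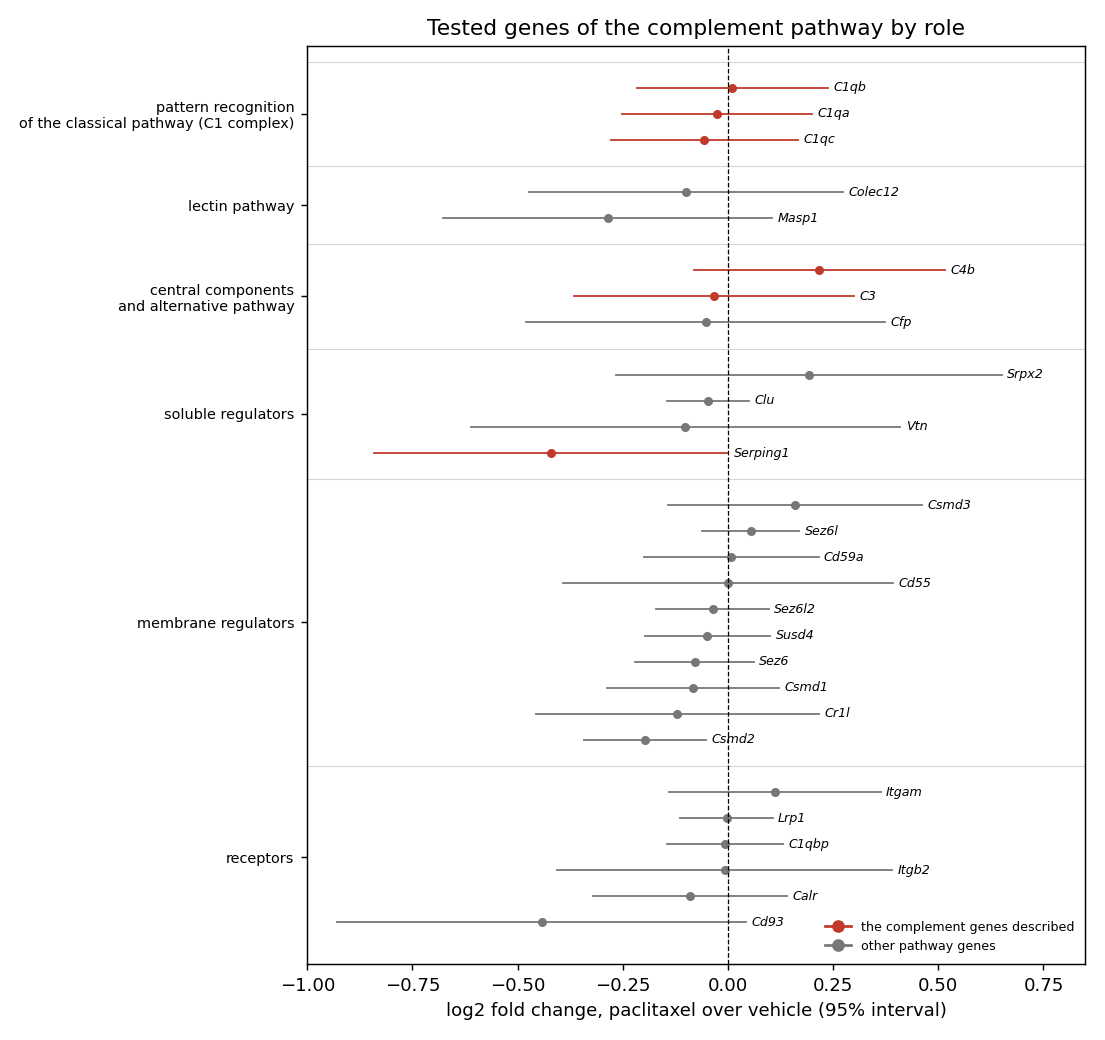
Log2 fold change of paclitaxel over vehicle with its 95% interval for tested complement genes, grouped by role, with the 6 tested genes of the main set in red and other pathway genes in grey. Every interval drawn includes 0 except that of Csmd2, which did not pass after adjustment over all genes.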

How the data were processed

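The authors deposited expected counts per gene with no scaling. Genome build mm10 and the tools STAR, RSEM and edgeR 4.2.0 are named per the submitters' processing notes. For STAR and RSEM a version, and for the counting the annotation, strand setting and read filters, were not given in the sources used here. RSEM assigns a read that matches more than 1 gene by a model, which touches C4b with C4a and C1ra with C1rb. Fractions occurred in 5.04% of the entries, and each entry was rounded to a whole number.

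Counts were filtered with filterByExpr (minimum count 10, minimum total 15), scaled with TMM factors and tested in edgeR 4.0.16 (R 4.3.3) by the robust quasi-likelihood test without covariates, two-sided, with Benjamini-Hochberg adjustment over all 13287 genes at 0.05. CPM uses TMM-scaled library sizes, and a prior count of 2 enters log2 CPM. Each standard error was derived from the log2 fold change with its F value. Intervals, at 95%, cover the spread between libraries. Transcript lengths came from GENCODE release M21 by RefSeq ID, and coordinates from RefSeq genes on GRCm38. Correlations used 100000 permutations, two-sided; genes that were not tested entered as log2(CPM + 1). The fit was tested on counts simulated from its own dispersions, with planted changes larger than any fitted for the tested complement genes. That run does not bear on smaller changes. Pairs of same-group libraries all differed beyond counting noise (chi-square over degrees of freedom, 1.59 to 6.56), so none was treated as 1 library deposited again; this does not show that they are separate animals.

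The members and lists were chosen with earlier results of these data known. Named beside the 9 genes were, of each role list, up to 3 tested genes of lowest p and the gene of highest CPM, and the 5 genes most like C1qa, C3 and C4b. A gene that this rule names is not reported here, though counts and medians over its list include it. Of marker lists, Mbp, Snap25 and Ptgds were named as the genes of highest CPM in theirs. Alternatives were other scalings (DESeq2 size factors, upper quartile, library totals), no filter, a minimum of 1 CPM in 5 libraries, DESeq2 1.42.0 in full, limma-voom (limma 3.58.1) with and without sample quality weights, the replicate number as a block, and leaving out each library, or paclitaxel replicate 3 and vehicle replicate 4 together. Summing the C1q chains and the C4 pair was added after the data were seen.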

Additional observations from a re-analysis of the deposited data

Results flagged for a closer look

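Of 70 group and item pairs examined for a library far from the other 4 of its group, 8 were flagged, where chance flags about 1 in 20. C4b in vehicle replicate 2, at 85.1 CPM, stood above the next vehicle library at 71.2 CPM, and without that library the log2 fold change of C4b was 0.29. Summed markers of meninges and fibroblasts stood at 884 CPM in paclitaxel replicate 3, against at most 469 CPM in the other paclitaxel libraries, and at 766 CPM in vehicle replicate 4, against at most 472 CPM in the other vehicle libraries. Summed border macrophage markers were low in vehicle replicate 3, at 1.98 CPM, against at least 3.67 CPM in the other vehicle libraries. Summed markers of nerve roots were low in paclitaxel replicate 3, at 128 CPM against at least 183 CPM in the other paclitaxel libraries, and high in vehicle replicate 3, at 220 CPM against at most 187 CPM in the other vehicle libraries. C8g in paclitaxel replicate 4 was at 1.09 CPM, against at most 0.55 CPM in the other paclitaxel libraries, a difference of a few counts. Sez6 in paclitaxel replicate 2 was at 88.4 CPM, against at most 81.7 CPM in the other paclitaxel libraries.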

How the results depend on the processing

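No complement gene passed an adjusted p of 0.05 under any alternative run, and the count over all genes was 1 in DESeq2 (Klf4) and 1 with a replicate block (Fos), against 0 in edgeR without it. Nothing in the labels ties same-numbered samples to each other, and same-numbered libraries correlated in their deviations from -0.10 to 0.14; under the block Serping1 was at -0.41 and C4b at 0.20 on the log2 scale. With each library left out, C4b ran from 0.15 to 0.32 and Serping1 from -0.49 to -0.33, and neither changed sign in any setting. Log2 fold changes near 0 turned sign. Left out 1 library at a time, C1qa ran from -0.10 to 0.040, C1qb from -0.055 to 0.10, C1qc from -0.13 to 0.0030, C3 from -0.14 to 0.074, Calr from -0.16 to 0.0075, Colec12 from -0.20 to 0.024, Lrp1 from -0.052 to 0.024, Sez6l2 from -0.087 to 0.0033 and Cfp from -0.15 to 0.11. Without paclitaxel replicate 3 and vehicle replicate 4 together, C1qa was at 0.014, C1qc at 0.036, C3 at 0.0071, Calr at 0.028, Colec12 at 0.069 and Lrp1 at 0.030. The Lrp1 log2 fold change was 0.0013 with DESeq2 size factors, 0.0028 with upper-quartile scaling and 0.00053 in DESeq2, and that of C1qa was 0.016 in limma-voom with sample quality weights. The cause of these turns was not tested. Without the 2 libraries farthest on the first measure, r turned to 0.30 for C1qa and C1qc, to -0.12 for microglia level and C1qc and to 0.068 for microglia level and C1ra. Without vehicle replicate 1, r of deviations of C1qa and C1qc was 0.51 and that of C3 and C1qc 0.63. Depth limits C1ra, C3ar1 and C5ar1, whose counts ran from 1 to 17 per library.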
